A study of Mus musculus with 25 samples.

Results

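Serpins are proteins with a shared fold, most of which stop a protease by offering it an exposed loop as bait and trapping it once the loop is cut. Other members have lost this activity and serve as hormone carriers, as secreted factors or as a chaperone of collagen in the endoplasmic reticulum. In the kidney they are known as inhibitors of the coagulation, fibrinolysis and complement proteases and, through the collagen chaperone, for their place in making matrix that includes the glomerular basement membrane. The serpin genes described here were taken by symbol, as Serpin followed by a letter from a to i, a number and at most 1 further letter. The rule named Serpina6 and Serpina10 with their levels in these arrays already known, so their differences are given as a description, with no test. It found 39 of 17097 genes on the array, each read from 1 probe set (the group of probes for 1 transcript), chosen by the highest mean log2 value over all 25 arrays. Of these, 16 were among the 11968 genes kept after the dimmest 30% were left out, and 23 were not. Other serpin genes were not analysed here.

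The study profiled RNA bound to tagged ribosomes of mouse kidney podocytes, the cells that carry the filtration slits of the glomerulus, on 25 microarrays. Animals labelled WT, of strain C57/129sv, carried the transgene Tg:Col1a1-eGFPL10a, a green fluorescent protein fused to ribosomal protein L10a under a collagen 1α1 promoter and enhancer. Animals labelled KI carried the same transgene and the Actn4tm1.1Plk allele of alpha-actinin 4. At 2 weeks of age there were 4 arrays of each genotype, at 5 weeks 5 of WT and 4 of KI, and at 44 weeks again 4 of each. The design text writes the KI parents as carrying 1 wild-type allele, gives no allele count for the profiled animals, and labels sex as unknown. The labels do not say that arrays came from separate animals, and the p-values therefore rest on array spread that may be technical. Actn4 was not analysed, which leaves the KI label without a check on its own gene. Tagged ribosomes follow the cells in which the promoter is active, and in such bulk RNA fewer cells of a type and less RNA per cell cannot be told apart.

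The podocyte label was checked on 13 of 16 listed podocyte genes, whose mean level lay between 10.5 and 11.4 on all 25 arrays on the deposited log2 scale, with none of the 13 below the limit for dim genes. A mean over 10 listed fibroblast genes, Col1a1 among them, fell with age, from 7.26 to 8.44 on the 2-week arrays to 5.96 to 7.47 at 5 weeks and 5.08 to 5.94 at 44 weeks. WT array 1 of 2 weeks stood apart from the other WT arrays of its age, with a parietal epithelium mean of 7.76 against 8.61 to 8.63. WT arrays 7, 8 and 9 of 5 weeks had lower mesangial means (6.94 to 7.36) than the other WT arrays of that age (8.09 and 8.26). Several serpin results are also given without these arrays. The counts and values of the gene lists rest on all 25 arrays, with none left out.

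**Figure D1:**
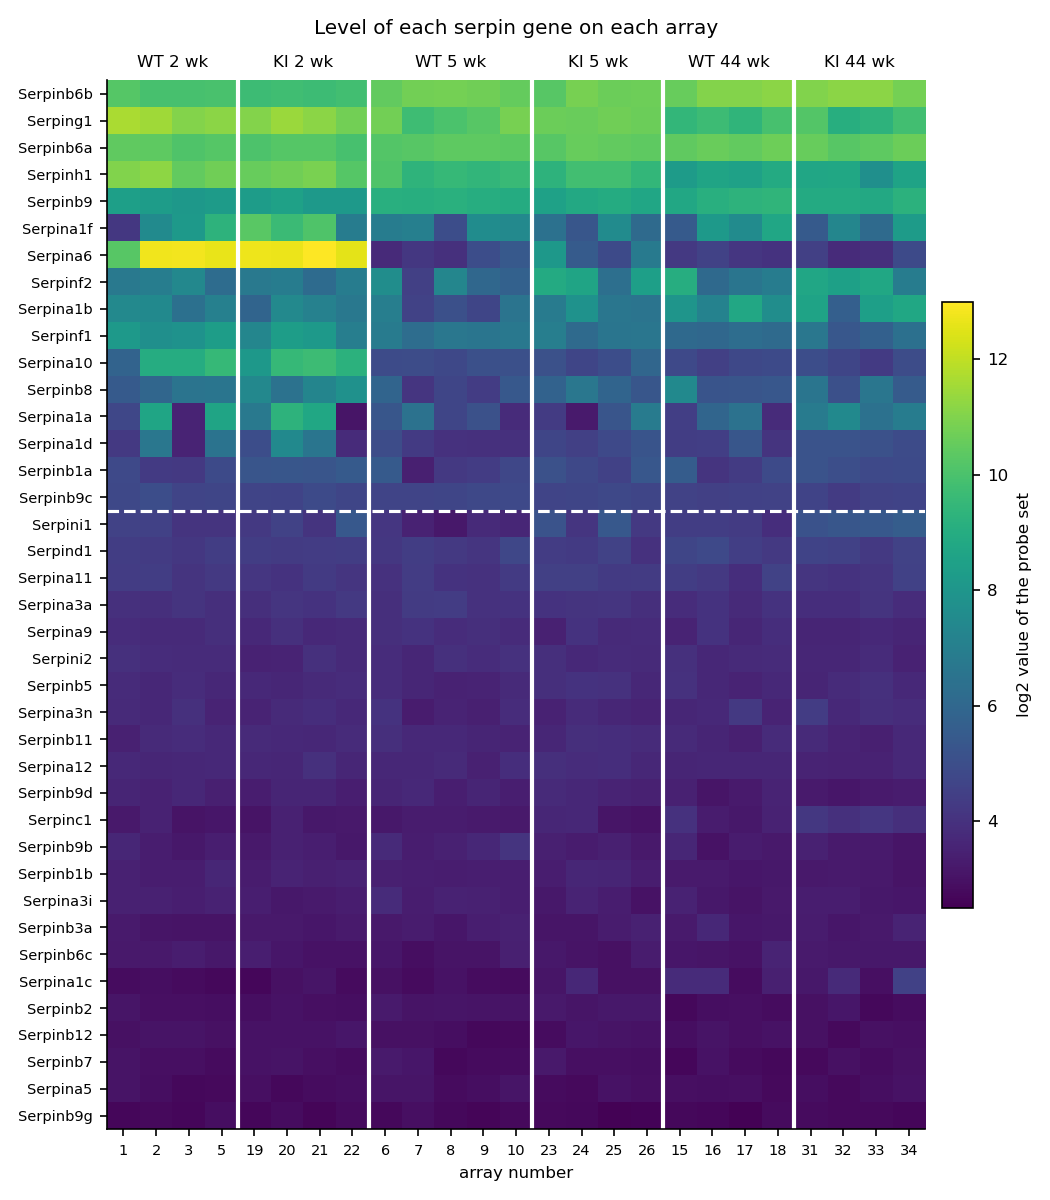
Each cell is the log2 value of 1 serpin gene (vertical axis, ordered by mean) on 1 of the 25 arrays (horizontal axis, by group and array number), with the colour scale in log2 units. The dashed line separates the 16 genes that entered the tests from the 23 dim ones. Serpina6 is brightest on the 8 arrays of 2 weeks and dark on most later arrays.

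The promoters of 4 genes are shown because they belong to the members that moved the same way in both genotypes between 2 and 5 weeks and have a RefSeq entry. Serpinh1 and Serpinf1 fell, and Serpinb6b and Serpinb9 rose. Each run is the 250 bases before the RefSeq start of the gene, GRCm38.p6, read 5′ to 3′ on the strand of the gene. The positions are chr7:99353240-99353489 (minus strand) for Serpinh1, chr11:75422624-75422873 (minus strand) for Serpinf1, chr13:32965011-32965260 (plus strand) for Serpinb6b and chr13:33004291-33004540 (plus strand) for Serpinb9. Capitals mark matches, on either strand, to the TATA box TATAAA, the CCAAT box CCAAT, the heat shock element GAANNTTC or the GC box GGGCGG.
Serpinh1: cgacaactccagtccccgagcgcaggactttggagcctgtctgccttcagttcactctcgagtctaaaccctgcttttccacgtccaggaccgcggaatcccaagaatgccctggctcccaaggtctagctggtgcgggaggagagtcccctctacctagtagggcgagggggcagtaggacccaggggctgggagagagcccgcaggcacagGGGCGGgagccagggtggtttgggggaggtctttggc
Serpinf1: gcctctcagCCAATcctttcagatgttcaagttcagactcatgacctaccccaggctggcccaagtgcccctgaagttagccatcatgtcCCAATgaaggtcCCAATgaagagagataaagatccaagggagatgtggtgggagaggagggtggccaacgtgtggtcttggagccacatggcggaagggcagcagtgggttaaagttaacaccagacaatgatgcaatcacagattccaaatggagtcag
Serpinb6b: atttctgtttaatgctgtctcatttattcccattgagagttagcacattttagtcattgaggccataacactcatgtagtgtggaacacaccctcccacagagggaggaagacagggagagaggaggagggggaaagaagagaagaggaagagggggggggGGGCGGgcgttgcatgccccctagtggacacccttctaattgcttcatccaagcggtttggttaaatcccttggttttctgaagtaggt
Serpinb9: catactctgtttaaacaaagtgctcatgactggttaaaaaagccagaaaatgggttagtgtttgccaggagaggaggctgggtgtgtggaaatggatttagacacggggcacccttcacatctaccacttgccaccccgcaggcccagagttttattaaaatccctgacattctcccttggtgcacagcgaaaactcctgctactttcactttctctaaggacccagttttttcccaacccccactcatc
Serpinh1 and Serpinb6b each held 1 GC box, at 37 and 89 bases before the start, and Serpinf1 held 3 CCAAT boxes. Serpinb9 held none of the 4 motifs. Over 32851 promoters of the same length, 12.4% held the TATA box, 33.8% the CCAAT box, 6.69% the heat shock element and 32.7% the GC box. A match describes these letters only and is not a binding site. In all, 34 of the 39 genes had a promoter entry. Serpina6, Serpina10 and Serping1 had none.

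Leaving Serpina6 and Serpina10 aside, 14 serpin genes were tested, and between 2 and 5 weeks 7 of them changed in WT, where 33.9% of all 11968 tested genes passed. Of these 2 were higher (12.2% of all genes) and 5 lower (21.7%). In KI 5 of the 14 changed (13.7% of all genes), 2 higher (5.4%) and 3 lower (8.29%). The median log2 change over the 14 was -0.78 in WT and -0.42 in KI, beside -0.06 and 0.02 over all genes. A gene passed at an adjusted p under 0.05 in limma, with the adjustment over all genes tested. The groups of 2 and 5 weeks did not overlap for 5 of the 14 in WT (16.7% of all genes) and 5 in KI (25.2%).

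**Figure D2:**
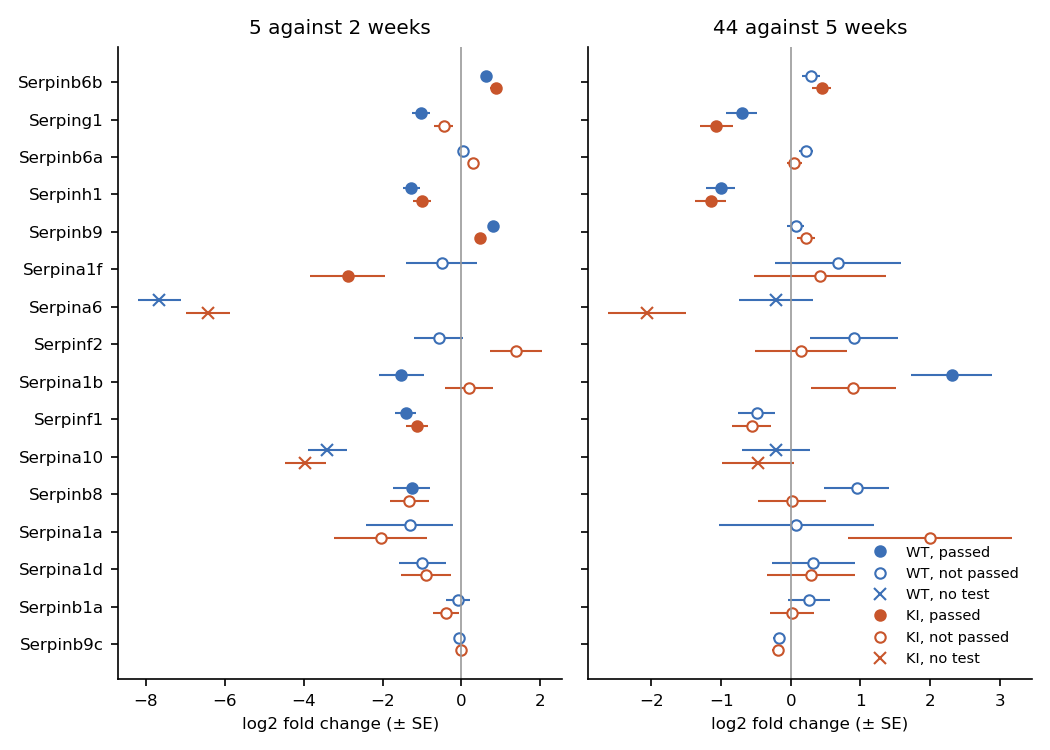
Log2 fold change with its standard error (horizontal axis) for each of the 16 tested serpin genes (vertical axis), for 5 against 2 weeks on the left and 44 against 5 weeks on the right, in WT (blue) and KI (orange). Filled points passed at an adjusted p under 0.05, open points did not, and crosses mark Serpina6 and Serpina10, which are described with no test. Serpina6 and Serpina10 lie farthest to the left at 5 against 2 weeks.

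Serpina6 encodes corticosteroid-binding globulin, a serpin without inhibitory activity that carries glucocorticoids in plasma. At 2 weeks its log2 values were 10.26, 12.76, 12.80 and 12.67 on the WT arrays and 12.74, 12.68, 12.96 and 12.58 on the KI arrays. At 5 weeks they were 3.76, 4.19, 3.96, 4.97 and 5.45 in WT and 8.10, 5.51, 4.85 and 6.81 in KI. All 8 arrays of 2 weeks were above all 9 arrays of 5 weeks, and WT array 1 was the lowest of the 8. The group means were 12.12 ± 1.24 (SD, n = 4) in WT and 12.74 ± 0.16 (SD, n = 4) in KI at 2 weeks. At 5 weeks they were 4.47 ± 0.72 (SD, n = 5) and 6.32 ± 1.44 (SD, n = 4), a difference of -7.65 ± 0.54 (SE) in WT and -6.42 ± 0.56 (SE) in KI. Without WT array 1 the WT difference was -8.28. At 44 weeks the values were 4.26, 4.55, 4.18 and 4.03 in WT and 4.49, 3.80, 3.90 and 4.84 in KI, inside the range of the serpin genes left out as dim (2.55 to 5.58). Between 5 and 44 weeks the difference was -2.06 ± 0.56 in KI, or -1.47 without KI array 23, and -0.21 ± 0.54 in WT. The gene stayed above the limit for dim genes through its 2-week level, as its mean was below that limit of 4.603 in WT at 5 weeks and in both genotypes at 44 weeks.

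Serpina10, which lies next to Serpina6 in the serpin cluster of chromosome 12, encodes the protein Z-dependent inhibitor of activated factor X. Its values at 2 weeks were 5.85, 9.02, 9.01 and 9.55 in WT and 8.10, 9.53, 9.70 and 9.24 in KI. At 5 weeks they were 4.92, 4.94, 4.78, 5.07 and 5.07 in WT and 5.11, 4.70, 4.99 and 5.98 in KI. The ages did not overlap in KI, and WT array 1, at 5.85, was the only 2-week array below the highest 5-week KI array. The difference between 5 and 2 weeks was -3.40 ± 0.49 (SE) in WT and -3.95 ± 0.51 (SE) in KI, and without WT array 1 the WT value was -4.23. At 44 weeks the arrays read 4.28 to 4.99, and the difference from 5 weeks was -0.22 ± 0.49 in WT and -0.47 ± 0.51 in KI. In RefSeq gene order on chromosome 12 these neighbours are followed by Serpina16, which was not analysed here, then Serpina1f, Serpina1b, Serpina1d, Serpina1a and Serpina1c.

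**Figure D3:**
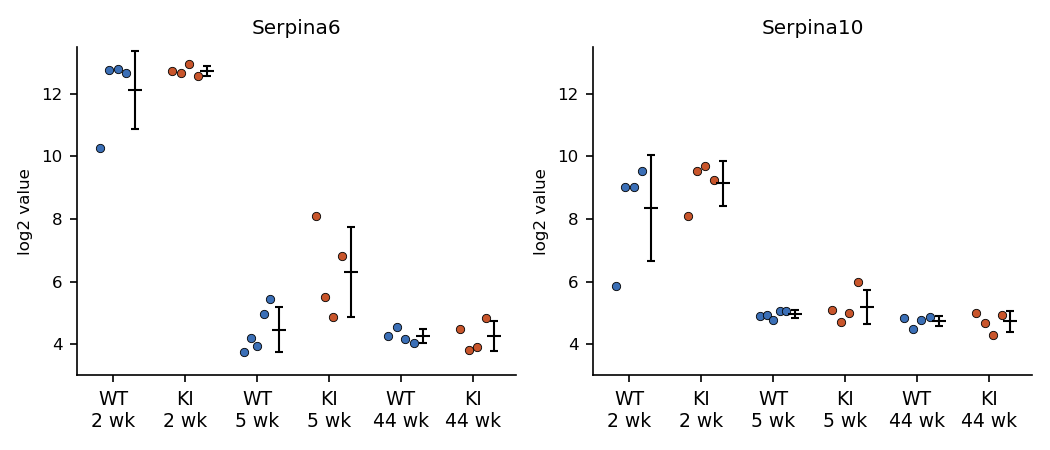
Log2 value of Serpina6 (left) and Serpina10 (right) on each array (points, WT blue and KI orange) by group, with the mean and SD of each group beside the points. The 2-week arrays lie above the 5-week arrays in each genotype, with WT array 1 the lowest of 2 weeks at 10.26 and 5.85, for Serpina10 below the highest KI array of 5 weeks at 5.98.

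The parietal epithelium list moved in the same direction as these neighbouring genes. Its mean was 7.76 to 8.63 on the WT arrays and 8.59 to 8.92 on the KI arrays of 2 weeks, against 7.38 to 7.81 and 7.73 to 8.28 at 5 weeks, and 5 of its 9 tested genes fell in WT (21.7% of all genes) and 4 in KI (8.29%). The hepatocyte and plasma protein list, which speaks to the liver as the usual source of Serpina6, had a mean of 5.95 to 6.64 at 2 weeks and 5.18 to 5.98 at 5 weeks, and 2 of its 9 tested genes fell in WT and 1 in KI, counts near those shares of all genes. The part of either list in the Serpina6 and Serpina10 differences was not tested.

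Serpina1a, Serpina1b and Serpina1d, copies of alpha-1 antitrypsin, the inhibitor of neutrophil elastase, are near-identical, and their probe sets are of a kind that can read more than 1 copy, so their values are uncertain as to gene. Serpina1b read 7.43, 7.50, 6.38 and 7.07 in WT at 2 weeks, 6.99, 4.56, 5.05, 4.71 and 6.55 at 5 weeks, then 7.96, 7.14, 8.79 and 7.65 at 44 weeks. The 2 and 5-week WT groups overlapped, while the 44-week arrays were above all 5-week arrays. It fell by 1.52 ± 0.58 (adjusted p = 0.046) and then rose by 2.31 ± 0.58 (adjusted p = 0.0085) in WT. Without WT arrays 7, 8 and 9 neither change passed (-0.32 and 1.11), and the fall was also lost on leaving out any 1 of 13 of the 25 arrays (range -1.87 to -1.27). In KI its values were 5.90, 7.45, 7.10 and 6.71 at 2 weeks, 6.89, 7.84, 6.63 and 6.53 at 5 weeks, then 8.61, 5.66, 8.43 and 8.76 at 44 weeks, and no change with age passed. Serpina1f, a more distant relative read by a probe set of its own, was at 10.30, 9.66, 10.12 and 6.89 at 2 weeks and 6.43, 5.33, 7.58 and 6.11 at 5 weeks in KI, groups that overlapped through KI array 22. It fell there by 2.88 ± 0.95 (adjusted p = 0.047), a call lost on leaving out any 1 of 15 arrays. In WT, at 4.21, 7.52, 8.19 and 9.29 against 6.92, 7.04, 4.99, 7.60 and 7.46, the difference of -0.50 ± 0.90 did not pass. The mean of the Y-linked genes described below was 4.38 over the KI arrays of 2 weeks and 6.75 over those of 5 weeks. Serpina1f read lower where that mean was high at 5 and 44 weeks, so age and this signal were not balanced in the KI fall.

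Serpinh1, or HSP47, binds newly made procollagen in the endoplasmic reticulum and is needed for its folding, and it fell at both steps in both genotypes. Its WT values were 11.03, 11.23, 10.47 and 10.73 at 2 weeks, 10.09, 9.32, 9.53, 9.42 and 9.60 at 5 weeks, then 8.25, 8.65, 8.53 and 8.90 at 44 weeks. Its KI values were 10.56, 10.71, 10.87 and 10.22, then 9.28, 9.82, 9.81 and 9.45, then 8.71, 8.74, 7.72 and 8.59. In neither genotype did any age overlap with the next. On the log2 scale it fell by 1.27 ± 0.21 in WT (adjusted p = 0.00017) and fell by 1.00 ± 0.22 in KI (adjusted p = 0.0052) between 2 and 5 weeks. Between 5 and 44 weeks Serpinh1 fell by 1.01 ± 0.21 in WT (adjusted p = 0.0028) and by 1.15 ± 0.22 in KI (adjusted p = 0.0019). The probe set used is of a kind that can read related transcripts, and the second probe set of the gene moved the same way in all 4 of these comparisons, by -1.62, -1.22, -0.74 and -0.62.

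Serpinf1, pigment epithelium-derived factor, a secreted serpin known for limiting vessel growth, fell between 2 and 5 weeks. It read 8.16, 7.74, 7.84 and 8.33 in WT at 2 weeks and 6.86, 6.24, 6.67, 6.56 and 6.69 at 5 weeks, without overlap. In KI it read 7.30, 8.36, 8.16 and 6.98 and then 7.01, 6.11, 6.57 and 6.63, and the groups overlapped through KI arrays 22 and 23. It fell by 1.41 ± 0.27 in WT (adjusted p = 0.00047) and by 1.12 ± 0.28 in KI (adjusted p = 0.011). The second probe set of Serpinf1, with a mean of 4.83, moved the same way but much less, by -0.40 in WT and -0.14 in KI. At 44 weeks the first probe set read 6.09, 5.99, 6.24 and 6.14 in WT and 6.68, 5.33, 5.70 and 6.36 in KI. Its changes from 5 weeks, -0.49 ± 0.27 and -0.56 ± 0.28, did not pass.

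Serping1 encodes the C1 inhibitor, which restrains the first complement proteases and plasma kallikrein. It read 11.68, 11.50, 11.07 and 11.18 at 2 weeks in WT, 10.75, 9.75, 10.02, 10.28 and 10.84 at 5 weeks, and 9.46, 9.69, 9.37 and 9.96 at 44 weeks. In KI it read 11.04, 11.42, 11.16 and 10.76, then 10.63, 10.60, 10.71 and 10.66, then 10.17, 9.07, 9.27 and 9.81. Every step in each genotype was free of overlap except that of WT between 5 and 44 weeks. It fell in WT between 2 and 5 weeks by 1.03 ± 0.22 (adjusted p = 0.0015) and between 5 and 44 weeks by 0.70 ± 0.22 (adjusted p = 0.032). In KI the first difference, -0.45 ± 0.24, did not pass, and the fall between 5 and 44 weeks was 1.07 ± 0.24 (adjusted p = 0.0046). The genotype difference in the first step, 0.58 ± 0.33, did not pass (adjusted p = 0.34). Without WT arrays 7, 8 and 9 the first WT difference was -0.56 (adjusted p = 0.16), and the second lost its call without array 6, 9, 10, 15 or 17 in turn (range -0.85 to -0.58).

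The fall of Serpinh1, Serpinf1 and Serping1 ran beside that of the fibroblast list. Between 2 and 5 weeks 7 of its 8 tested genes fell in WT (21.7% of all genes). In KI 1 of 8 fell (8.29%), a count near that share. From 5 weeks on 4 of 8 fell in WT (8.85% of all genes) and 6 of 8 in KI (8.64%). With the fibroblast mean of each array as a covariate, an alternative chosen after seeing the data, the Serping1 changes were -0.02 (WT, 5 against 2 weeks), 0.07 (WT, 44 against 5) and 0.04 (KI, 44 against 5). The Serpinh1 changes were -0.64 and -0.70 at 5 against 2 weeks in WT and KI, and -0.53 and -0.46 at 44 against 5 weeks, of which the KI change at 5 weeks passed (adjusted p = 0.040). The Serpinf1 changes were -0.67 in WT and -0.77 in KI and did not pass. Serpina6 and Serpina10 kept values of -7.30 and -3.33 in WT and -6.26 and -3.92 in KI. The covariate itself fell with age, so age and fibroblast signal are only partly separable in this fit.

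**Figure D4:**
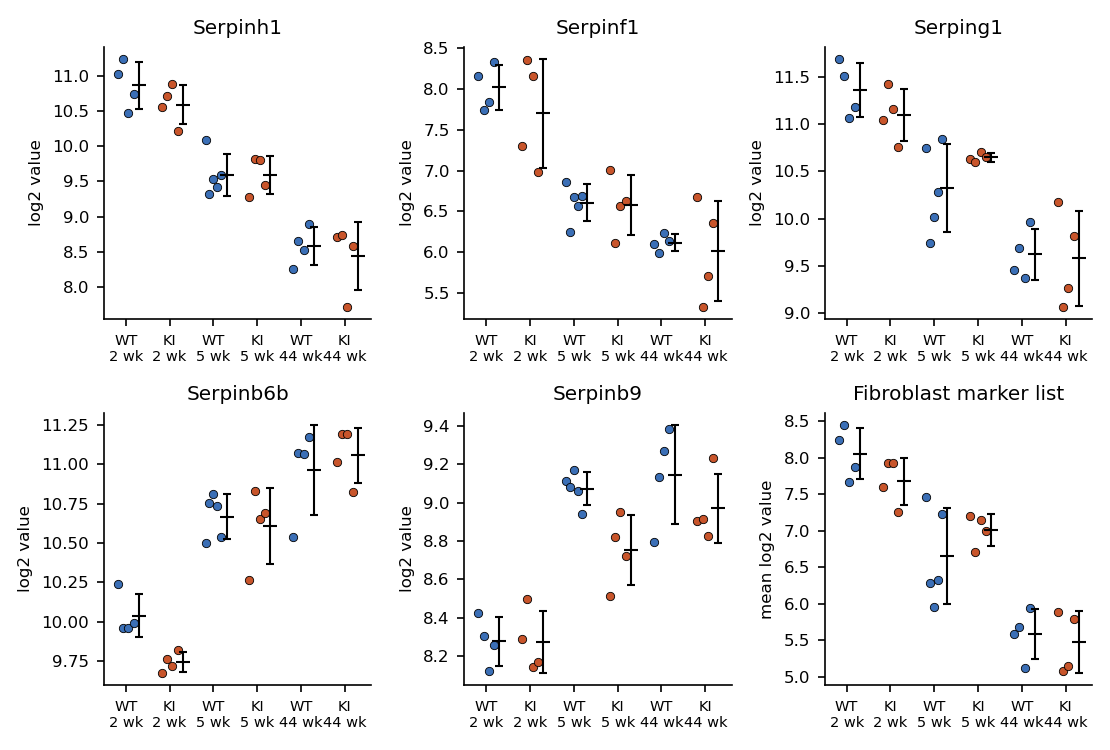
Log2 value of Serpinh1, Serpinf1, Serping1, Serpinb6b and Serpinb9, and the mean of 10 fibroblast marker genes, on each array (points, WT blue and KI orange) by group, with the mean and SD beside the points. The vertical axes do not start at 0. The upper panels and the fibroblast list step down with age, and Serpinb6b and Serpinb9 step up between 2 and 5 weeks.

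Members of subfamily B are mainly found inside the cell. Serpinb9, an inhibitor of granzyme B, read 8.43, 8.30, 8.12 and 8.26 in WT at 2 weeks and 9.11, 9.08, 9.17, 9.06 and 8.94 at 5 weeks. In KI it read 8.29, 8.50, 8.14 and 8.17 and then 8.51, 8.82, 8.95 and 8.72. The ages were apart in both genotypes, in KI only by the distance between 8.50 and 8.51. It rose by 0.80 ± 0.12 in WT (adjusted p = 7.0e-05) and by 0.48 ± 0.13 in KI (adjusted p = 0.015), and the KI call ended without KI array 21 or 25 (0.43 and 0.41). At 44 weeks it read 8.79 to 9.39 in WT and 8.83 to 9.23 in KI, with no further change that passed.

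Serpinb6b, a mouse relative of the intracellular inhibitor Serpinb6a, read 10.24, 9.96, 9.96 and 9.99 in WT at 2 weeks and 10.50, 10.75, 10.81, 10.74 and 10.54 at 5 weeks. In KI it read 9.68, 9.76, 9.72 and 9.82 and then 10.27, 10.83, 10.65 and 10.69. Both genotypes rose without overlap. The rise was 0.63 ± 0.13 in WT (adjusted p = 0.00092) and 0.86 ± 0.14 in KI (adjusted p = 0.00035), and without WT arrays 7, 8 and 9 the WT value was 0.48 (adjusted p = 0.081). At 44 weeks the values were 10.54, 11.07, 11.06 and 11.17 in WT and 11.01, 11.19, 11.19 and 10.82 in KI. The KI groups of 5 and 44 weeks overlapped at 1 pair of arrays, and the rise of 0.45 ± 0.14 (adjusted p = 0.029) ended without KI array 23, 25, 32 or 33 (range 0.33 to 0.52 over all arrays left out). The WT change of 0.29 ± 0.13 did not pass. The podocyte list rose over the same step. In WT 11 of its 13 tested genes were higher at 5 than at 2 weeks (12.2% of all genes), and in KI 7 of 13 (5.4%). The part of this list in the rise of both serpins was not tested.

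Serpinb6a, an inhibitor of cathepsin G, read 10.09 to 10.42 in WT and 9.96 to 10.24 in KI at 2 weeks. At 5 weeks it read 10.19 to 10.41 in WT and 10.29 to 10.58 in KI, and at 44 weeks 10.28 to 10.67 over both genotypes. No comparison passed. The KI groups of 2 and 5 weeks did not overlap (0.29 ± 0.10, adjusted p = 0.060), nor did the WT groups of 5 and 44 weeks (0.22 ± 0.10, adjusted p = 0.12). Serpinb8, an intracellular serpin that inhibits furin, read 5.49, 5.96, 6.55 and 6.59 in WT at 2 weeks and 5.87, 4.11, 4.70, 4.36 and 5.39 at 5 weeks, with overlap. It fell by 1.26 ± 0.46 (adjusted p = 0.040), a call lost on leaving out any 1 of 6 arrays (WT 2, 3, 5, 7, 8 or 9) and, without arrays 7, 8 and 9 together, at -0.52. The KI difference, -1.32 ± 0.49, did not pass (adjusted p = 0.077).

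Between 5 and 44 weeks 3 of the 14 members tested changed in WT (20.1% of all genes), 1 higher (11.3%) and 2 lower (8.85%). In KI 3 of the 14 changed (16.8% of all genes), 1 higher (8.11%) and 2 lower (8.64%). Groups did not overlap for 5 of the 14 in WT (12.1% of all genes) and 3 in KI (25.8%). The median change over the 14 was 0.24 in WT and 0.10 in KI, beside 0.05 and -0.01 over all genes. When arrays were centred on their medians the WT split became 1 higher and 3 lower, with Serpinb9c added at -0.27. That centring moved the split over all genes from 1349 higher and 1059 lower to 803 higher and 1634 lower.

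The genotypes were compared at each age to ask what the Actn4 allele changes in these cells. At 2 weeks no serpin gene passed, as no gene of the 11968 did (0%), and 3 members had an unadjusted p under 0.05 in limma. These were Serpinb1a, an elastase inhibitor, at 0.78 ± 0.32, Serpinb8 at 1.09 ± 0.49 and Serpinb6b at -0.29 ± 0.14. The genotypes did not overlap for Serpinb1a, with WT at 4.82, 4.27, 4.25 and 4.87 and KI at 5.29, 5.32, 5.25 and 5.48, nor for Serpinb6b, in 2 of 14 members against 2.90% of all genes. At 44 weeks no serpin gene passed (0.0251% of all genes did) and none had an unadjusted p under 0.05, nor did any have groups that did not overlap (2.74% of all genes). The 3 with the smallest p were Serpinf2 at 1.06 ± 0.66, Serpina1a at 1.77 ± 1.17 and Serpinb9 at -0.18 ± 0.13. Averaged over ages no serpin gene passed, against 5.32% of all genes, and 4 of the 14 had an unadjusted p under 0.05. The smallest belonged to Serpinb1a at 0.51 ± 0.18 (adjusted p = 0.090) and Serpinb8 at 0.74 ± 0.28 (adjusted p = 0.10). Serpina6 differed by 0.83 ± 0.32. Serpinb1a lay near the limit for dim genes of 4.603, with WT means of 4.55 at 2 weeks and 4.46 at 5 weeks. Serpinb1a and Serpinb8 also read higher, short of passing, on the 5 and 44-week arrays with the high Y-linked signal described below. That signal was uneven over genotypes. Without WT array 15 of 44 weeks 4 members passed in that average, namely Serpinb1a, Serpinb8, Serpinb9 and Serpinf2, and without WT array 6 1 passed.

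At 5 weeks 1 of the 14 members tested, Serpinf2, was higher in KI and none lower, against 22% of all genes in either direction, 14.3% higher and 7.75% lower. The genotypes were free of overlap for 0 of the 14, against 12% of all genes. With arrays centred on their medians, or quantile normalised, Serpinb9 passed as lower in KI (-0.38 and -0.34). Centring also moved the split over all genes from 1710 higher and 928 lower to 1376 higher and 1383 lower.

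The Serpina6 mean was 1.85 ± 0.54 higher in KI than in WT at 5 weeks, given with no test because the gene was named with its levels known. KI arrays 23 and 26, at 8.10 and 6.81, were the highest, and KI array 25, at 4.85, lay inside the WT range of 3.76 to 5.45. The difference was 1.26 without KI array 23, 1.69 without KI array 26 and 1.71 without WT arrays 7, 8 and 9. The genotype difference itself differed by 1.23 ± 0.78 between 5 and 2 weeks and by -1.85 ± 0.78 between 44 and 5 weeks.

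Serpinf2 encodes alpha-2-antiplasmin, the main inhibitor of plasmin. It read 7.64, 4.50, 7.30, 6.02 and 5.78 in WT and 8.92, 8.62, 6.32 and 8.41 in KI at 5 weeks, and the KI excess was 1.82 ± 0.63 (adjusted p = 0.042). KI array 25, at 6.32, lay among the WT arrays and the other KI arrays above them. The call ended on leaving out any 1 of 6 arrays (WT 7, 9 or 10, KI 23, 24 or 26), with a range of 1.38 to 2.40, under quantile normalisation (adjusted p = 0.052) and without WT arrays 7, 8 and 9 (1.36, adjusted p = 0.47). Tubule markers were higher on the same KI arrays, with a proximal tubule mean of 9.10 to 9.86 in KI and 8.11 to 9.39 in WT. With the tubule mean of each array as a covariate the Serpinf2 difference was 0.24 (adjusted p = 0.87) and that of Serpina6 1.89. At 5 weeks the proximal tubule mean also split the arrays by the Y-linked signal described below, so this covariate is not separate from that signal. Endothelial (7.10 to 7.49 in KI, 5.87 to 6.89 in WT) and leukocyte means (5.73 to 5.89 and 4.93 to 5.66) were also higher in KI at 5 weeks. So were the means of the hepatocyte and plasma protein list (5.75 to 5.98 in KI, 5.18 to 5.74 in WT), though 0 of its 9 tested genes passed, of the loop to collecting duct list (7.83 to 8.08 and 6.86 to 7.67), and of the mesangial list (8.40 against 7.57 as group means). The part of these lists in the genotype differences was not tested. Over 27 exact permutation tests of such list means between genotypes (two-sided) the lowest adjusted p was 0.11. With 5 and 4 arrays this test can give no p under 0.016 before adjustment. The loop to collecting duct, endothelial, leukocyte and hepatocyte lists were at that floor at 5 weeks. The tests therefore cannot show that list means were alike between genotypes.

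Serpinf2 also followed a difference between arrays that the labels do not give. The mean of 3 Y-linked genes was either high (7.26 to 8.39) or low (2.89 to 3.69) on each array. At 2 weeks 4 of 4 WT and 1 of 4 KI arrays were high, at 5 weeks 2 of 5 WT and 3 of 4 KI arrays, and at 44 weeks 1 of 4 WT and 3 of 4 KI arrays, an uneven spread over genotypes. At 5 weeks Serpinf2 read 7.64, 7.30, 8.92, 8.62 and 8.41 on the 5 arrays with high signal and 4.50, 6.02, 5.78 and 6.32 on the other 4. At 44 weeks it read 9.03, 8.71, 8.48 and 8.76 against 6.09, 6.60, 6.92 and 6.90. High and low arrays did not overlap at either age. The proximal tubule mean separated the same arrays. At 5 weeks it was 9.17 to 9.86 on the high arrays and 8.11 to 9.10 on the low ones. At 44 weeks it was 10.01 to 10.28 and 8.51 to 9.33. Serpinf2 thus followed both signals, and their parts were not tested apart. A limma model held the Y-linked split inside each group, chosen after seeing the data. The Serpinf2 difference over both ages was 2.14 ± 0.22 (adjusted p = 3.5e-06). Serpinf2 was the only 1 of 16 members to pass, against 2.67% of all genes. At 2 weeks all WT arrays were high, so the difference there, 0.29 ± 0.47, rested on KI array 20 alone. That array read 6.90 against 6.76, 6.17 and 6.89 on the low KI arrays, too few to show whether the split holds at 2 weeks. With the Y-linked mean as a covariate the KI excess at 5 weeks was 1.27 ± 0.35 (adjusted p = 0.017). Within the high arrays of 5 weeks KI read 8.92, 8.62 and 8.41 and WT 7.64 and 7.30, and within the low ones KI read 6.32 and WT 4.50, 6.02 and 5.78.

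Serpina1f lay the other way, lower on the arrays with high signal by -1.86 ± 0.63, which did not pass (adjusted p = 0.13). Its high arrays read 6.92, 4.99, 6.43, 5.33 and 6.11 at 5 weeks against 7.04, 7.60, 7.46 and 7.58 on the low ones. At 44 weeks they read 5.45, 5.47, 7.31 and 6.12 against 8.17, 7.58, 8.71 and 8.25, again without overlap. In the same model Serpinb1a (0.63 ± 0.21, adjusted p = 0.12) and Serpinb8 (0.85 ± 0.32, adjusted p = 0.18) were higher on the high arrays. Serpinb9 was lower there (-0.20 ± 0.09, adjusted p = 0.24). None of these passed.

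**Figure D5:**
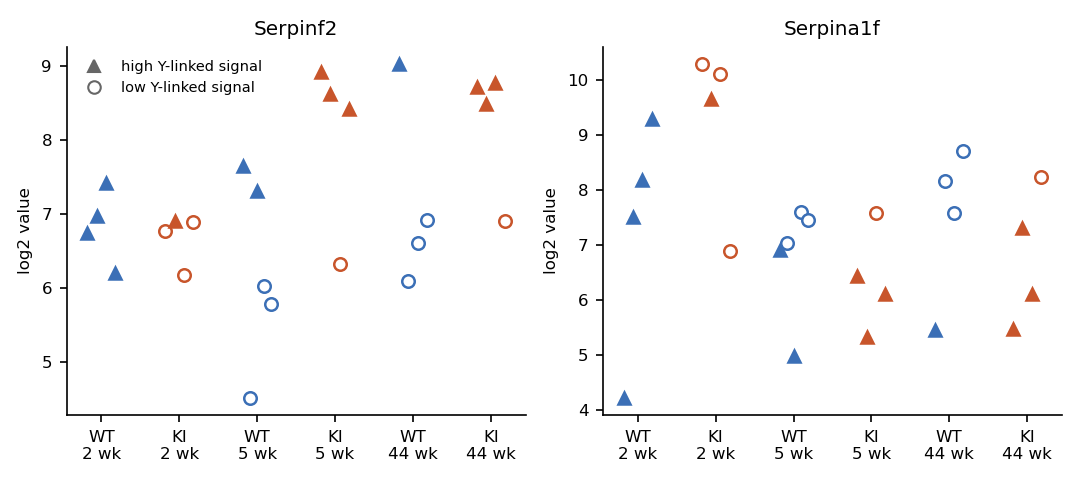
Log2 value of Serpinf2 (left) and Serpina1f (right) on each array by group (WT blue, KI orange), with filled triangles for arrays with a high mean of 3 Y-linked genes and open circles for those with a low one. At 5 and 44 weeks the triangles lie above the circles for Serpinf2 and below them for Serpina1f.

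No serpin gene passed for a genotype effect that differed between 5 and 2 weeks (0.0251% of all genes did) or between 44 and 5 weeks (0%), and 1 and 0 of the 14 members tested had an unadjusted p under 0.05. For the first the smallest p belonged to Serpinf2 (1.96 ± 0.91, adjusted p = 0.25), Serpina1b (1.70 ± 0.84) and Serpinb9 (-0.32 ± 0.17). For the second they belonged to Serpina1b (-1.41 ± 0.84) and Serpinb8 (-0.92 ± 0.68).

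The partners of the serpins were read from 4 lists. Of 34 listed target proteases 20 were tested, and in WT 0 rose and 10 fell between 2 and 5 weeks, while 12.2% of all genes rose and 21.7% fell. The median over the 20 was -0.36 beside -0.06 over all genes. Those with the smallest p were Masp1, a protease of the lectin complement pathway (-2.64 ± 0.34), the membrane proteases Hpn (-2.43 ± 0.40) and St14 (-1.98 ± 0.30), and Prss8, a channel-activating protease (-1.60 ± 0.28). In KI 1 rose (5.4% of all genes) and 4 fell (8.29%), Masp1 by 2.01 ± 0.36. Between 5 and 44 weeks the WT list went the other way, with 7 higher (11.3% of all genes), 1 lower (8.85%) and a median of 0.38 beside 0.05. St14 rose by 1.11 ± 0.30 there, and Ctsh, cathepsin H, by 1.11 ± 0.22. In KI 0 rose and 1 fell. At 5 weeks 6 of 20 were higher in KI (14.3% of all genes) and none lower, with Hpn at 1.79 ± 0.40, Proc, which encodes anticoagulant protein C, at 1.69 ± 0.47, St14 at 1.16 ± 0.30 and Prss8 at 1.00 ± 0.28. These moved beside the higher tubule and endothelial means of the KI arrays given above.

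Of 25 partners of Serpinh1 in collagen making 20 were tested, and in WT 1 rose and 9 fell between 2 and 5 weeks (12.2% and 21.7% of all genes), with a median of -0.40. The type IV collagen chains Col4a1 and Col4a2 fell by 1.94 ± 0.24 and 1.92 ± 0.25, the collagen hydroxylation partner P3h4 by 1.28 ± 0.18, and the prolyl isomerase Ppib by 0.73 ± 0.11. In KI 4 fell (8.29% of all genes), Col4a1 by 1.04 ± 0.25 and Ppib by 0.36 ± 0.11 among them. Between 5 and 44 weeks 2 rose and 5 fell in WT (11.3% and 8.85% of all genes) and 1 rose and 7 fell in KI (8.11% and 8.64%). Col3a1 (-2.58 ± 0.32 in WT and -2.95 ± 0.33 in KI) and Col1a1 (-2.24 ± 0.39 and -3.33 ± 0.41) are also in the fibroblast list. Plod2, a lysyl hydroxylase of collagen, rose by 1.05 ± 0.20 in WT and 0.98 ± 0.21 in KI. At 5 weeks 6 of the 20 were higher and 3 lower in KI than in WT (14.3% and 7.75% of all genes). Of the 6 higher ones Mia3 had the smallest p (1.045 ± 0.32), and it was also higher averaged over ages (0.71 ± 0.19). The 3 lower ones were P4hb, a subunit of prolyl hydroxylase (-0.39 ± 0.09), and the type IV collagen chains Col4a4 (-0.35 ± 0.11) and Col4a5 (-0.51 ± 0.15).

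Around Serpina6, 13 of 14 listed genes of steroid and thyroid hormone handling were tested, and 1 rose and 3 fell in WT and 0 rose and 3 fell in KI between 2 and 5 weeks. The WT count of 4 of 13 is near the 33.9% of all genes that passed, and the KI count stands beside 13.7%. The thyroid hormone deiodinase Dio1 (-2.11 ± 0.52 in WT and -3.32 ± 0.55 in KI) and Sgk1, a kinase whose gene responds to corticosteroids (-0.70 ± 0.19 and -0.83 ± 0.20), fell in both. Nr3c2, the mineralocorticoid receptor, rose in WT by 0.62 ± 0.18. Of 26 listed cofactors and clearance receptors 16 were tested, and 3 rose and 2 fell in WT (33.9% of all genes in either direction) and 1 rose in KI (13.7%) over the same step, shares no higher than over all genes. Lrp1, a receptor that clears serpin and protease complexes, fell in WT by 1.07 ± 0.27, and F3, tissue factor, rose by 0.88 ± 0.21.

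The 23 members left out as dim lay between 2.55 and 5.58 on all arrays, and the group means of 20 of them lay within 0.5 of each other. With no filter on dim genes Serpini1, neuroserpin, an inhibitor of tissue plasminogen activator, was the only 1 of them higher in KI at 5 weeks (1.10 ± 0.26, adjusted p = 0.0095, 14.2% of all genes) and averaged over ages (0.82 ± 0.16, adjusted p = 0.021, 2.80%). Its other probe sets, with means of 3.39 and 2.59, were not compared on their own. The probe set used read 4.14, 3.50, 3.19, 3.75 and 3.63 in WT and 5.20, 4.13, 5.41 and 4.26 in KI at 5 weeks, groups that overlapped at 4.14 and 4.13. At 44 weeks it read 4.41, 4.41, 4.32 and 3.89 in WT and 5.14, 5.29, 5.38 and 5.58 in KI, which did not overlap, and the difference of 1.09 ± 0.28 did not pass (adjusted p = 0.39). In that fit 4 dim members passed in KI between 5 and 44 weeks (12.8% of all genes). Serpinc1, antithrombin, rose by 0.72 ± 0.16 (adjusted p = 0.0061), from 3.61, 3.66, 3.10 and 3.00 to 4.20, 3.97, 4.15 and 3.92. Serpinb1b, Serpinb2 and Serpinb9d fell by 0.27, 0.26 and 0.37. In WT 1 dim member passed at this step (15.5% of all genes), Serpinb2, which fell by 0.24.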

How the data were processed

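Ribosome-bound RNA was amplified in 1 round and hybridised to arrays with perfect-match probes, per the labels. The authors deposited 1 value per probe set and array on a log2 scale, a base read from the values (1.86 to 13.62). The summary and normalisation of probe sets are steps not given in the sources used here; array medians differed by at most 0.17. Arrays have no read depth, and their number limits the precision. Groups came from the titles and source names. Of 45141 probe sets 28898 had 1 gene symbol, 551 several, 15692 had no entry in the platform annotation, and 104 were controls; 99.3% of Entrez identifiers were found when symbols were updated. Each gene is its probe set with the highest mean, and genes under 4.603 (the lowest 30%) were left out.

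The model was fitted with lmFit and eBayes (limma 3.58.1, R 4.3.3) to 6 group means over 25 arrays, with Benjamini-Hochberg adjustment over 11968 genes and a threshold of 0.05. ± values on differences are moderated standard errors. In simulated data with independent noise for each gene, 200 genes among 11968 were changed 2-fold. Of these 76.5% were recovered for KI against WT at 5 weeks, 75.5% for WT and 72.5% for KI at 44 against 5 weeks. False calls were 3.77%, 7.36% and 5.23% of the calls made, in the same order. Shifts shared by whole arrays were not simulated, so recovery in the real data may differ. Named with values by array are Serpina6, Serpina10, each member that passed in any comparison and the 6 with the highest mean; of the pathway lists, up to 4 genes per comparison by p. Lists were podocyte, proximal tubule, loop to collecting duct, endothelium, mesangium, parietal epithelium, fibroblast, leukocyte, hepatocyte and Y-linked markers, target proteases, cofactors, collagen partners and hormone handling. List means per array were compared by exact permutation tests. Members and lists were chosen with earlier results of these data known. Alternatives were quantile normalisation, median centring, other filters, the mean of all probe sets, array weights, a robust prior with a trend, a fit of the compared arrays alone, tubule and Y-linked covariates, each array left out, WT arrays 7, 8 and 9 left out, and a fibroblast covariate added after seeing the data. Promoter sequences and gene order are from RefSeq, GRCm38.p6.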

Additional observations from a re-analysis of the deposited data

Results flagged for a closer look

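In 9 of 72 sets of 1 named gene in 1 group, 1 array lay far from the rest of its group by Dixon's criterion, which chance meets in about 1 of 20 sets. Array 1 of the 2-week WT group did so for 3 genes. Serpina6 was 10.2555 there against 12.67 to 12.80 on the other arrays, Serpina10 was 5.8452 against 9.01 to 9.55, and Serpinb6b was 10.2411 against 9.96 to 9.99. On that array the parietal epithelium mean was also low and the podocyte mean, at 11.09, was the highest of its group; their part was not tested. Array 15 of the 44-week WT group stood apart for Serpinb6b, 10.5396 against 11.06 to 11.17, and for Serpinb8, 7.4983 against 5.22 to 5.33. It was the only array of that group with high Y-linked signal, and its proximal tubule mean, 10.28, was the highest of the group.

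In the 44-week KI group Serpinf2 was 6.9047 on array 34, the only array with low Y-linked signal, against 8.48 to 8.76. The proximal tubule mean of array 34, 9.33, was also the lowest of the group. Serpina1b was 5.6615 on array 32 against 8.43 to 8.76, and Serpinh1 was 7.7245 on array 33 against 8.59 to 8.74. In the 5-week WT group Serpina1f was 4.9863 on array 8 against 6.92 to 7.60.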

How the results depend on the processing

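Each of the 10 counts of serpin genes that passed, and each of the 25 passing changes of single members, was recomputed under 12 alternatives and with each array left out. These counts and changes include Serpina6 and Serpina10, which the report describes with no test, so they are no support for those 2 genes. Without the pair the main counts of 14 members were 1 for KI against WT at 5 weeks (22% of all genes) and 0 averaged over ages (5.32%). They were 7 for WT at 5 against 2 weeks (33.9%), and 3 for WT (20.1%) and 3 for KI (16.8%) at 44 against 5 weeks. The counts under the alternatives are given without such shares. With 50% of genes left out as dim 22 of the 25 had a value, since Serpina10 and Serpinb8 were no longer among the genes tested. The KI against WT count at 5 weeks, 2 (Serpinf2 and Serpina6), became 6 with array weights, 0 with only the arrays compared, 0 with the tubule covariate, 0 without WT arrays 7, 8 and 9 and 1 with the fibroblast covariate. The count averaged over ages, 0, became 1 with no filter on dim genes (Serpini1), 1 with the mean of all probe sets (Serpinb8), 1 with the Y-linked covariate (Serpinf2) and 5 with array weights. The KI count at 44 against 5 weeks, 4 of 16 members tested, became 8 of 39 with no filter (12.8% of all genes) and 0 with the fibroblast covariate. The WT count at 5 against 2 weeks, 9, became 5 without WT arrays 7, 8 and 9 and 3 with the fibroblast covariate, and the WT count at 44 against 5 weeks, 3, became 1 with that covariate. Array weights gave 3 members and 1 member with a genotype effect that differed between 5 and 2 and between 44 and 5 weeks. More or fewer genes entered the fit without the filter; the other causes were not tested.

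With each array left out, the serpin genes called numbered 0 to 3 for KI against WT at 5 weeks, 0 to 4 averaged over ages, 7 to 9 for WT and 5 to 8 for KI at 5 against 2 weeks, 2 to 3 and 2 to 4 at 44 against 5 weeks, and 0 in the other comparisons. Of the 25 changes the fibroblast covariate reversed 3, Serping1 at 44 against 5 weeks in WT (0.067995) and KI (0.038549) and Serpina1b at 5 against 2 weeks in WT (0.10383), and ended 12 more. Under the 11 other alternatives none reversed, and at most 8 ended, those without WT arrays 7, 8 and 9. Among genes with another probe set all 11 changes kept their sign in it, though not always their size. The Serpinf1 falls were -0.40 in WT and -0.14 in KI there, and the Serpinb8 fall in WT -0.47. No paired analysis was possible because the array numbers in the titles are shared by no 2 groups. Near 4 on the log2 scale signal over background limits what a fold change can show.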

Other observations

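Serpina1a and Serpina1d, neighbouring copies of alpha-1 antitrypsin, were uneven within the 2-week groups. Serpina1a read 4.72, 8.66, 3.54 and 8.63 on WT arrays 1, 2, 3 and 5 and 6.74, 9.27, 8.74 and 3.09 on KI arrays 19 to 22. Serpina1d read 4.22, 6.65, 3.53 and 6.48, and 4.99, 7.48, 6.57 and 3.79, high on the same 4 arrays. After 2 weeks Serpina1a read 3.25 to 7.48 and Serpina1d 3.94 to 5.29. Their probe sets can read each other's transcripts, so the values do not say which copy was present. No comparison of either gene passed.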
